A study of Mus musculus with 4 samples.

Results

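The genes described here bring iron into the heart cell, store it, let it out and build it into iron-sulfur clusters. They were the 9 genes whose symbols were on a fixed list, out of 17485 genes in the deposited table, and all 9 were found. Uptake, export and storage were represented by Tfrc, Slc11a2, Slc40a1, Fth1 and Ftl1, and mitochondrial cluster assembly by Nfs1, Iscu, Isca1 and Glrx5. Iron reaches most cells bound to transferrin and enters through the transferrin receptor, is moved out of endosomes by a divalent metal transporter, is held in ferritin shells when not in use, and leaves through ferroportin. In mitochondria it is combined with sulfur taken from cysteine on a scaffold protein, and the clusters made there are passed to respiratory chain complexes and other enzymes. The heart depends on this supply because its energy comes mostly from respiration.

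Total RNA of mouse hearts was sequenced in 2 libraries of wild-type mice and 2 libraries of Klf9 knockout mice, all labelled male, taken at 8 weeks, with feeding labelled as random food and drink. Klf9 is a DNA-binding regulator of transcription (Krüppel-like factor 9), and the study asked how it bears on mitochondria of the heart. The labels gave no strain, no description of the deleted part, no allele beyond the knockout and no word on whether each library is a different animal. The p-values therefore cover library-to-library spread alone, which may be technical. The test used, limma, estimates that spread for a gene partly from the other genes. The deposited table holds ratios between libraries, from which a value for each library was recovered; its unit is not given and the depth is unknown. Klf9 stood at 74.9 and 58.8 in wild type and fell to 2.66 and 1.99 in the libraries labelled knockout.

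Several genes set the libraries apart in ways the labels do not describe. The Y-linked genes Kdm5d and Ddx3y were both at 0.01, the lowest step of the values, in knockout replicate 2, against 4.01 and 7.82 in knockout replicate 1 and 3.42 to 17.1 in the wild-type libraries. Esr1, the estrogen receptor alpha gene, was at 3326 and 2726 in wild type and at 0.09 and 0.03 in the knockout. Tnni1, the troponin I form of the heart before birth, was at 0.16 and 0.01 in wild type and at 656 and 994 in the knockout. Knockout of Klf9 cannot be told apart from any other difference between the groups. Results for the members that passed are therefore also given without knockout replicate 2. A fit without it leaves 1 library in the knockout group, which then has no spread of its own. The p-values of fits with a library left out rest on the other group and on the spread of other genes. They are not to be set against those of the full fit.

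The transcripts of several of these genes carry iron-responsive elements, short stem-loops that iron regulatory proteins bind when cell iron is low. Bound in the 5' untranslated region (UTR) of ferritin or ferroportin, they block translation; bound in the 3' UTR of the transferrin receptor, they protect the messenger RNA from decay. The elements are shown because the pattern searched was found in only some of the members. Sequencing of RNA measures message level, which the second kind of control acts on, and not translation. The letters searched were CNNNNNCAGTGN followed by 5 bases that pair with the 5 bases before the loop, with G-U pairs allowed, on the transcript strand of 1 coding transcript per gene (GENCODE M21, GRCm38). Capitals mark the loop.
Fth1, 5' UTR, chr19:9982738-9982754, plus strand: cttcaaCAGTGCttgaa
Ftl1, 5' UTR, chr7:45459785-45459801, minus strand: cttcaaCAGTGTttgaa
Slc40a1, 5' UTR, chr1:45925471-45925487, minus strand: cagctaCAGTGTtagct
Tfrc, 3' UTR, chr16:32631225-32631241, plus strand: cggaagCAGTGCcttcc
Tfrc, 3' UTR, chr16:32631604-32631620, plus strand: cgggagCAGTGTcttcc
Tfrc, 3' UTR, chr16:32631669-32631685, plus strand: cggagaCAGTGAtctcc
Tfrc, 3' UTR, chr16:32631716-32631732, plus strand: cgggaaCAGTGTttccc

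The pattern was found in the 5' UTR of 0.102% of 20581 coding genes with such a region and in the 3' UTR of 0.536% of 20728. The ferritin pair share the same stem and differ in the last base of the loop. In these letters the pattern was not in the UTRs of the transcripts searched for Slc11a2, Nfs1, Iscu, Isca1 or Glrx5. An element with an unpaired base in its stem, or in another transcript of the gene, would be missed. These genes may therefore still carry one. A match is a description of the sequence and not of binding.

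Knockout hearts had more transferrin receptor messenger RNA and less of ferritin heavy chain, ferroportin and most of the cluster assembly genes. Of the 9 genes, Tfrc rose, Slc40a1, Fth1, Nfs1, Iscu and Isca1 fell, and Slc11a2, Ftl1 and Glrx5 did not pass (limma on log2(value + 1); threshold 0.05 on the p adjusted by Benjamini-Hochberg over 12135 genes). All 9 passed the filter on low values. Calls were frequent in this comparison: 44.7% of all tested genes passed, 27.7% as higher and 17% as lower, beside which the 6 of 9 members called, 1 higher and 5 lower, are to be read. In 7 of the 9 genes the groups did not overlap, against 75.4% of all tested genes. The median log2 fold change was -0.67 over the 9 genes and 0.12 over all genes tested.

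**Figure D1:**
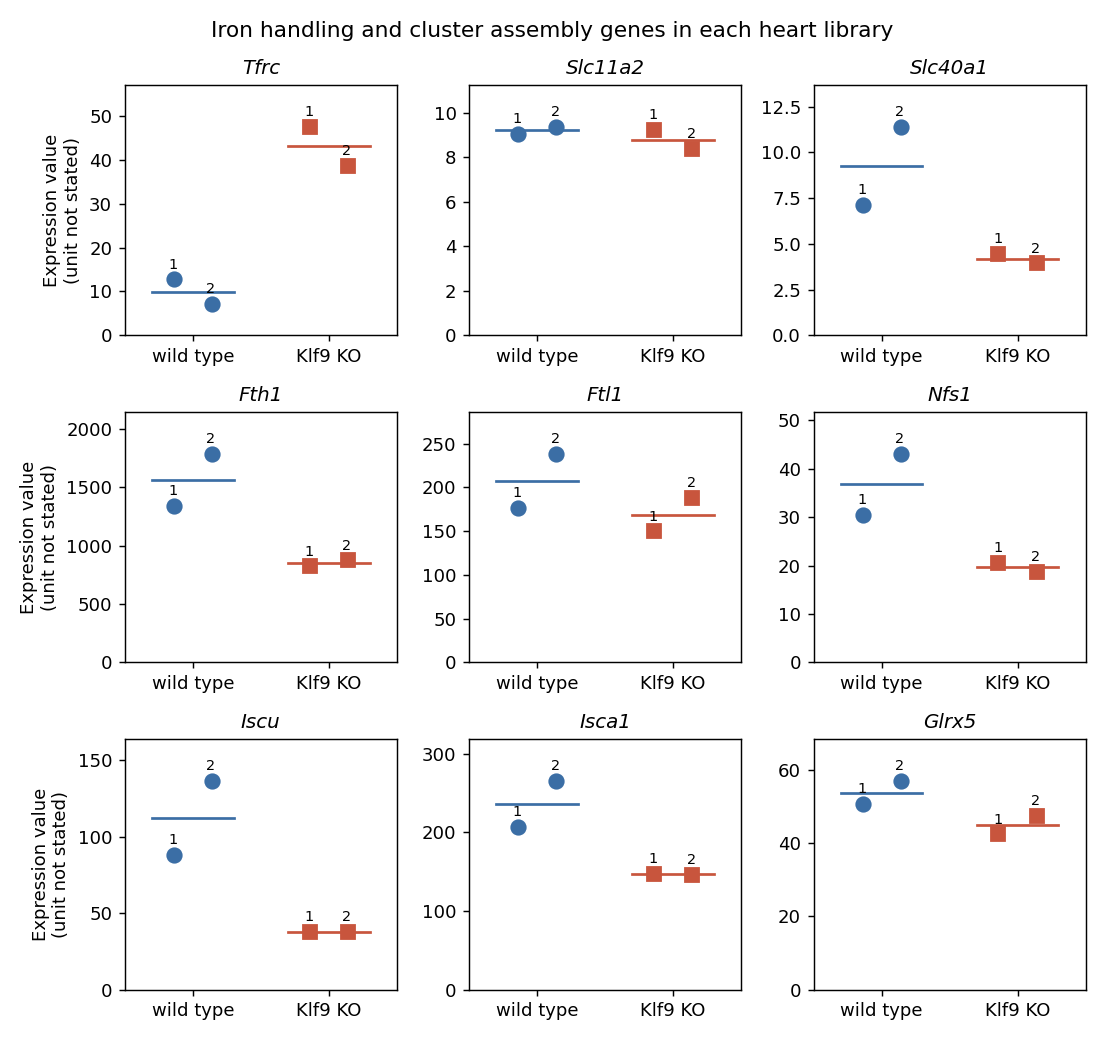
Expression value (unit not stated, linear axes from 0) of each of the 9 genes in the 2 wild-type and 2 Klf9 knockout libraries; points are libraries numbered by replicate and bars are group means. Tfrc is higher in both knockout libraries, Slc40a1, Fth1, Nfs1, Iscu, Isca1 and Glrx5 are lower in both, and the groups overlap in Slc11a2 and Ftl1.

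Tfrc (Entrez 22042) encodes transferrin receptor 1, through which transferrin-bound iron is taken up. In wild type it was at 12.7 and 7.07, and in the knockout at 47.6 and 38.7. Both knockout libraries lay above both wild-type libraries, and the gap between the groups was wider than the gap within either. The knockout mean was 4.35 times the wild-type mean. The difference between the group means of log2(value + 1) was 2.06 ± 0.26 (SE, n = 2 for each genotype, limma adjusted p = 0.000377). Without knockout replicate 2 this difference was 2.21. The wild-type libraries themselves differed by 0.85 on the log2 scale, replicate 2 being the lower, and the fold change ran from 1.68, when that library was left out, to 2.44, when wild-type replicate 1 was.

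Slc11a2 (Entrez 18174), the divalent metal transporter DMT1 that carries iron out of the endosome, did not follow the receptor. It was at 9.07 and 9.38 in wild type and at 9.22 and 8.37 in the knockout, so the groups overlapped. The fold change was -0.06 ± 0.17 on the log2 scale (SE; limma adjusted p = 0.784), and it was -0.20 after RLE scaling. Slc40a1 (Entrez 53945) encodes ferroportin, the known route of iron export. It stood at 7.14 and 11.4 in wild type and at 4.46 and 3.93 in the knockout, with both knockout libraries below both wild-type libraries. On the log2 scale Slc40a1 changed by -0.95 ± 0.22 (SE, limma adjusted p = 0.0078), and by -0.88 without knockout replicate 2. Leaving out wild-type replicate 2, the highest library for this gene, gave -0.65, and leaving out the other wild-type library gave -1.26.

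The ferritin shell is made of a heavy chain, Fth1, which oxidises iron, and a light chain, Ftl1, which helps form the mineral core. Fth1 (Entrez 14319) was at 1336 and 1784 in wild type and at 822 and 872 in the knockout. The groups did not overlap, and the knockout mean was 0.543 of the wild-type mean. The log2 difference was -0.87 ± 0.25 (SE; limma adjusted p = 0.02). With 1 knockout library left out at a time the size stayed near this and the call was lost: -0.91 without knockout replicate 2 (limma adjusted p = 0.199) and -0.82 without knockout replicate 1 (limma adjusted p = 0.24). Ftl1 (Entrez 14325) was at 177 and 238 in wild type and at 149.7 and 188 in the knockout, where knockout replicate 2 lay above wild-type replicate 1. Its log2 fold change of -0.29 ± 0.24 (SE) did not pass (limma adjusted p = 0.352), and without wild-type replicate 1 it was -0.50 and passed (limma adjusted p = 0.0245). The ratio of heavy to light chain within a library does not depend on how libraries are scaled. Set to 0 at the wild-type mean, this log2 ratio was 0.01 and -0.01 in wild type and -0.46 and -0.70 in the knockout, a mean difference of -0.58. Both ferritin values are uncertain in that the mouse annotation holds further ferritin copies, and how reads shared with them were counted is not given. A search by gene symbol found 5 (Fth-ps2, Fth-ps3, Ftl1-ps1, Ftl1-ps2 and Ftl2-ps). Copies under other names would be missed. Ftl1 and Slc11a2 also share up to 355 and 197 exon bases with the genes Gm10252 and Gm5475 on the opposite strand. On the same strand, Ftl1 shares up to 109 with the microRNA gene Gm22133.

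Cluster assembly begins with Nfs1, the cysteine desulfurase that supplies sulfur, and Iscu, the scaffold on which clusters form. Iscu (Entrez 66383) had the largest decrease of the 9 genes. It was at 88.2 and 137 in wild type and at 37.8 and 37.7 in the knockout, where the libraries nearly coincided. This is a log2 change of -1.51 ± 0.23 (SE, limma adjusted p = 0.00106). The change was -1.51 without knockout replicate 2 and -1.52 without knockout replicate 1. Nfs1 (Entrez 18041) was at 30.45 and 43.0 in wild type and at 20.5 and 18.7 in the knockout, again without overlap. Nfs1 changed by -0.85 ± 0.21 on the log2 scale (SE; limma adjusted p = 0.0104). The call was lost without knockout replicate 2 (-0.79, limma adjusted p = 0.11). Without knockout replicate 1 it rested on which genes were tested: limma adjusted p was 0.0474 over the same 12135 genes and 0.0544 when the filter was applied again to the remaining libraries. An Nfs1 exon shares up to 148 bases with an exon of Romo1 on the opposite strand in GENCODE M21, and whether counting used strand is not given. Nfs1 also shares up to 90 exon bases with the coding gene Gm28036 on the same strand, which strand would not separate.

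The later steps are represented by Isca1, which acts in making the larger clusters that enzymes such as lipoate synthase need, and Glrx5, a monothiol glutaredoxin that passes clusters on from the scaffold. Isca1 (Entrez 69046) was at 207 and 265 in wild type and at 147 and 146 in the knockout, with no overlap. The change was -0.67 ± 0.22 on the log2 scale (SE; limma adjusted p = 0.0324). It hardly moved and did not pass without knockout replicate 2 (-0.67, limma adjusted p = 0.284), without knockout replicate 1 (-0.68, limma adjusted p = 0.262) or with no filter on low values (limma adjusted p = 0.0577). Isca1 exons share up to 257 bases with the antisense gene Etohd2 and up to 61 with the coding gene Gm49354 on the same strand. Glrx5 (Entrez 73046) was at 50.6 and 57.0 in wild type and at 42.4 and 47.6 in the knockout. Both knockout libraries were below both wild-type libraries, but the log2 fold change of -0.25 ± 0.19 (SE) did not pass (limma adjusted p = 0.295).

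The 5 genes of uptake, export and storage moved apart from each other, and the 4 assembly genes lay on the same side. In the first group 1 rose, 2 fell and 2 did not pass, and the median log2 fold change was -0.29. In the second 3 fell, 0 rose and 1 did not pass, and the median was -0.76, against 0.12 over all genes tested. With 1 library left out at a time, the first median ran from -0.50 (without wild-type replicate 1) to -0.07 (without wild-type replicate 2), with -0.13 when knockout replicate 1 and -0.45 when knockout replicate 2 was left out, and the second from -0.97 to -0.55. Read pair by pair in the authors' deposited table, the assembly genes were lower in the knockout library in each of the 4 pairs. In the authors' deposited table their ratios ran from -1.86 (Iscu, knockout replicate 2 over wild-type replicate 2) to -0.09 (Glrx5, knockout replicate 2 over wild-type replicate 1). For Tfrc the authors' deposited table gave 1.90, 1.60, 2.75 and 2.45, all above 0. Slc11a2 and Ftl1 had 1 ratio each above 0 in the authors' deposited table, 0.02 and 0.09. The pairs share libraries and are not independent. All 4 ratios of a gene on the same side of 0 means that the groups did not overlap, as in 75.4% of all tested genes. Pairs with wild-type replicate 2 gave the larger size for Tfrc, Slc40a1, Fth1, Nfs1, Iscu, Isca1 and Glrx5.

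**Figure D2:**
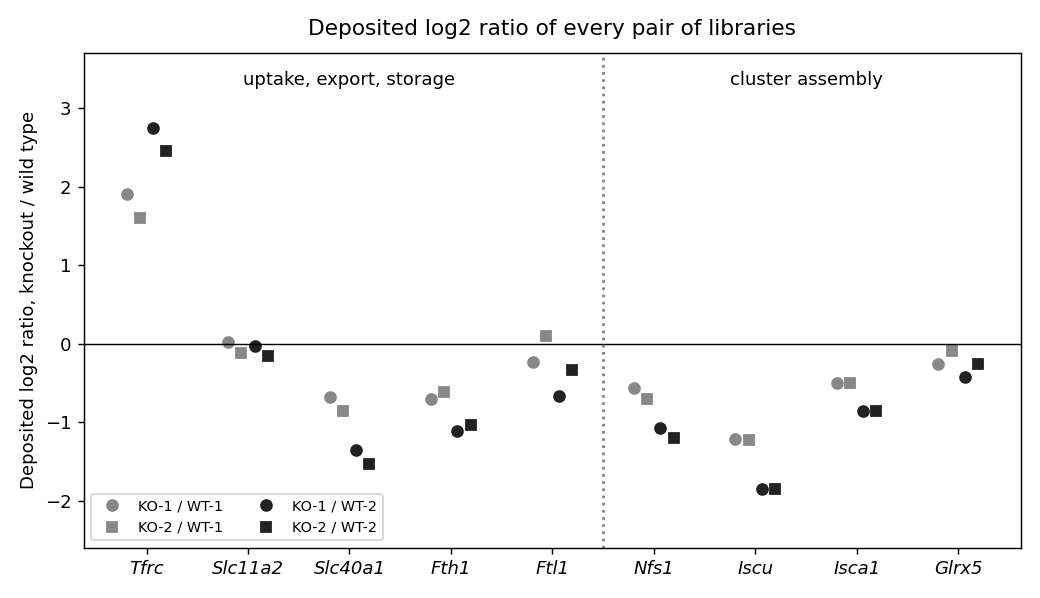
Log2 ratio of knockout over wild type from the authors' deposited table for each of the 4 pairs of libraries (circle, knockout replicate 1; square, knockout replicate 2; grey, wild-type replicate 1; black, wild-type replicate 2). The 4 Tfrc ratios lie between 1.60 and 2.75, and the 4 ratios of each assembly gene lie below 0.

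The difference between wild-type replicates bears on these sizes. Of the 9 genes, 8 were higher in wild-type replicate 2 than in replicate 1, by 0.05 (Slc11a2) to 0.68 (Slc40a1) on the log2 scale, and Tfrc was lower there. The median of this difference was 0.42 over the 9 genes and 0.03 over all genes tested. The part of this difference in the fold changes was not tested beyond leaving out each library. Ratios within a library compare the members without regard to scaling. Tfrc relative to Fth1 was 8.24 times as high in the knockout as in wild type (log2 values of 3.23 and 2.85 against 0.63 and -0.63 about the wild-type mean), and Tfrc relative to Iscu 13.1 times (3.86 and 3.57 against 0.74 and -0.74). Within the assembly genes, Iscu stood lower relative to Glrx5 in the knockout: their log2 ratio was -0.23 and 0.23 in wild type and -1.20 and -1.36 in the knockout, a mean difference of -1.28. In each of these ratios the groups did not overlap, and with 2 libraries per group a two-sided exact permutation test of a single ratio cannot go below p = 0.333.

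The deposited group comparison, made with DEGseq per the file headers, called more of the members than the replicate-based test did. In the authors' deposited table Ftl1 had a log2 ratio of -0.26 with a q-value of 6.43e-34 and Glrx5 one of -0.25 with a q-value of 4.14e-05, although neither passed when the replicate spread was the error. The authors' deposited table gave Slc11a2 a ratio of 0.04 with a q-value of 0.627.

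Related genes from lists chosen with earlier results known place the members in their pathway. Of 14 other genes of mitochondrial cluster assembly, 8 fell, 6 did not pass and 0 rose, with a median log2 fold change of -0.75. For this and the following lists the shares over all tested genes are 17% lower and 27.7% higher. Examples are Nubpl, which delivers clusters to complex I (-1.14 ± 0.18, SE), Hscb, the co-chaperone that acts on the scaffold (-1.27 ± 0.21), and Bola3, a late-acting factor (-1.59 ± 0.28). Of 13 enzymes and proteins that hold clusters, 10 fell and 0 rose, with a median of -0.78. They included the complex I subunit Ndufs7 (-1.19 ± 0.21) and the mitochondrial outer membrane protein Cisd1 (-1.10 ± 0.20) and its relative Cisd2 of the endoplasmic reticulum (-0.97 ± 0.18). Leaving out knockout replicate 2 left 5 of the 14 and 3 of the 13 past the threshold, and leaving out knockout replicate 1 left 5 and 2; with no filter on low values 6 of the 13 passed.

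A separate machinery assembles clusters in the cytosol. Of its 11 genes 8 did not pass, 1 fell and 2 rose (median -0.07). Ciapin1, an electron carrier of that pathway, fell by 0.57 on the log2 scale, and its reductase Ndor1 (0.57 ± 0.17) and the targeting factor Mms19 (0.69 ± 0.17) rose. With either knockout library left out, 0 of the 11 passed in limma and 1 had an unadjusted p below 0.05. With wild-type replicate 1 left out, 2 were called higher and 5 lower. After RLE scaling 1 rose and 2 fell. Mitochondrial iron import gave 0 calls among 4 genes in limma at an adjusted p below 0.05, and also 0 at an unadjusted p below 0.05. With wild-type replicate 2 left out, 1 of the 4 was called higher and 2 had an unadjusted p below 0.05. The importer Slc25a37 was at 9.16 and 8.25 in wild type and 8.51 and 8.36 in the knockout. Its relative Slc25a28 was at 16.03 and 16.4 against 18.9 and 22.7. Abcb10, an inner membrane transporter of the same list, had a log2 fold change of -0.21 ± 0.16 (SE).

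Of 19 other genes of iron transport, storage and sensing, 17 were in the table and 13 passed the filter. Among these 4 fell, 2 rose and 7 did not pass the test, so that 6 of 13 were called, beside 44.7% of all genes. The median was -0.21, and 0.04 without wild-type replicate 2. Ceruloplasmin (Cp), a ferroxidase that works with ferroportin, was at 21.9 and 25.9 in wild type and at 2.18 and 1.68 in the knockout (-3.09 ± 0.18, SE; limma adjusted p = 9.63e-06). Its relative hephaestin (Heph) moved the other way, from 0.76 and 0.57 to 3.96 and 3.53 (1.51 ± 0.16). Transferrin itself (Trf) fell (16.2 and 20.3 against 4.94 and 4.14), as did Hfe, a partner of the transferrin receptor (11.9 and 12.6 against 3.69 and 2.93). Of the iron regulatory proteins, Aco1 rose (10.5 and 9.53 against 14.8 and 14.1; 0.49 ± 0.17, limma adjusted p = 0.0432) and Ireb2 did not pass (5.66 and 9.08 against 10.7 and 8.75). The Aco1 call was lost with the replicate number as a block (limma adjusted p = 0.0537), with RLE (0.128) or upper quartile scaling (0.0705), with no filter (0.0587) and without knockout replicate 1 (0.34) or 2 (0.282). Ncoa4, which takes ferritin to the lysosome, was at 29.4 and 38.03 against 24.4 and 22.1 and did not pass (limma adjusted p = 0.062); Ireb2 and Ncoa4 were chosen after their values were seen. In this list 1 gene rose and 3 fell without either knockout library in turn, and after RLE scaling 1 rose and 5 fell.

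Heme is the other large use of iron. Of 14 genes of its metabolism 7 did not pass, 4 rose and 3 fell; the median was 0.01, and -0.14 after RLE scaling. The share called, 7 of 14, is near the 44.7% of all tested genes. Of the enzymes of synthesis, Cpox (30.1 and 28.5 against 11.3 and 10.1), Uros (-0.87 ± 0.18) and Fech (-0.63 ± 0.20) fell, while Ppox rose (10.6 and 9.13 against 17.7 and 18.8). The heme carrier family member Flvcr2 (0.68 ± 0.17) and the biliverdin reductase Blvrb (0.78 ± 0.23) also rose. With knockout replicate 2 left out 1 gene was called in each direction, and with knockout replicate 1 left out 1 was called higher and 2 lower. Leaving out wild-type replicate 1 instead gave 6 lower and 4 higher, and RLE scaling 4 lower and 2 higher.

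**Figure D3:**
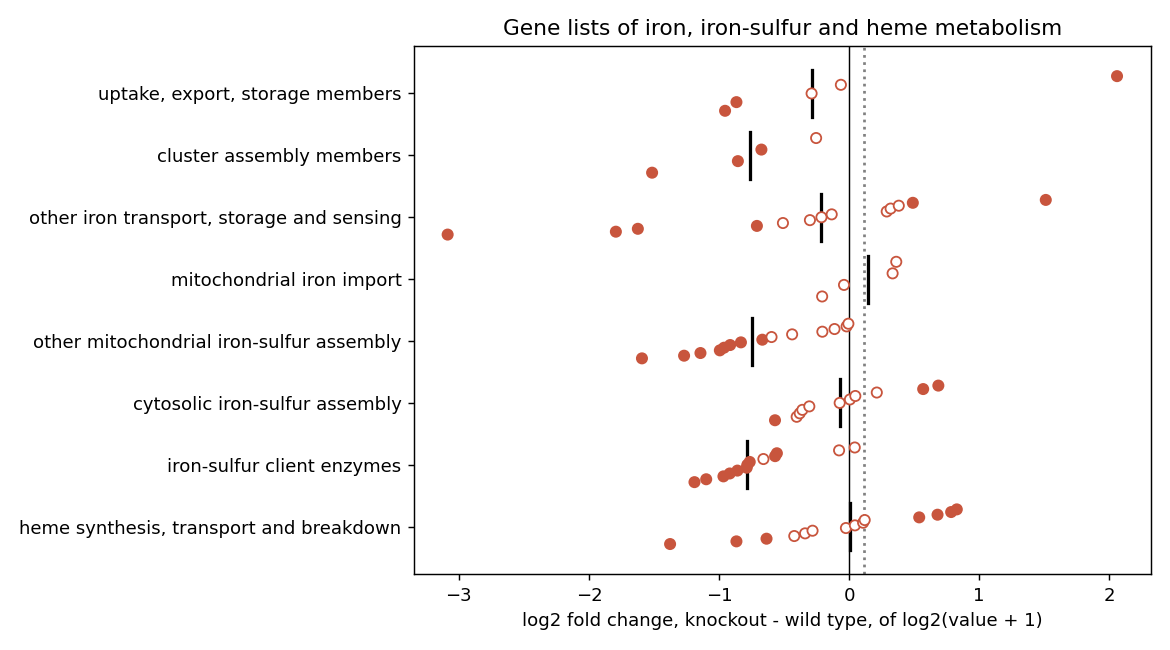
Log2 fold change of log2(value + 1), knockout minus wild type, for each tested gene of the lists; filled points passed (limma adjusted p below 0.05), open points did not, black bars are list medians and the dotted line is the median of all genes tested. The mitochondrial assembly and client lists have medians near -0.75, and those of cytosolic assembly, iron import and heme lie within 0.15 of 0.

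Other cell types of the heart also hold iron genes: macrophages that recycle iron are rich in ferroportin and ferritin, red cell precursors in transferrin receptor, and dividing cells raise the receptor as well. In bulk tissue, fewer cells of a type and less RNA per cell cannot be told apart. A summed value weights genes by recovered levels, which can each be too low by a factor common to the libraries, so sums are set only between libraries. Of 8 macrophage markers 7 fell and 0 rose, and their summed value was 135 and 184 in wild type and 44.4 and 44.0 in the knockout; none was at the lowest step, with Adgre1 at 2.70 and 3.76 against 1.99 and 1.72. Slc40a1 and Fth1 fell beside them. All 6 listed proliferation genes rose, with a summed value of 23.3 and 32.5 against 119 and 145, and Tfrc rose beside them; without knockout replicate 2, 5 of the 6 passed. Of 8 tested erythroid markers 2 rose (among them Slc4a1, 2.03 and 0.69 against 4.03 and 3.53; 1 gene rose after RLE scaling and, in limma with no filter, 0 of 10, with 3 at an unadjusted p below 0.05; 3 of 8 rose without wild-type replicate 1 and 4 of 8 with the replicate block), and the sum of the 10 in the table was 11080.3 and 10833 in wild type and 18953 and 12521 in the knockout. Hbb-b1 was at the lowest step in both knockout libraries and at 0.29 and 0.01 in wild type. Cardiomyocyte markers, which define the tissue, had a summed value of 25537 and 28750 in wild type and 30789 and 29424 in the knockout. Of these Tnni3 fell (limma adjusted p = 0.0479) and the other 5 did not pass. Within the sum, Myl2, Myh6 and Actn2 were higher in both knockout libraries, Tnnt2 and Tnni3 were lower in both, and the groups overlapped in Ryr2. The Tnni3 call was lost with no filter (limma adjusted p = 0.0762), without the robust setting (0.0599) and without knockout replicate 1 (0.365) or 2 (0.364), and without wild-type replicate 1 the list had 2 markers higher and 2 lower. Of 5 fibroblast markers 3 rose and 1 fell, their sum being 364 and 508 against 783 and 866, and of 5 endothelial markers 2 rose, with sums of 307 and 286 against 412 and 432. The part of these cells in the changes of Tfrc, Slc40a1 and Fth1 was not tested.

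**Figure D4:**
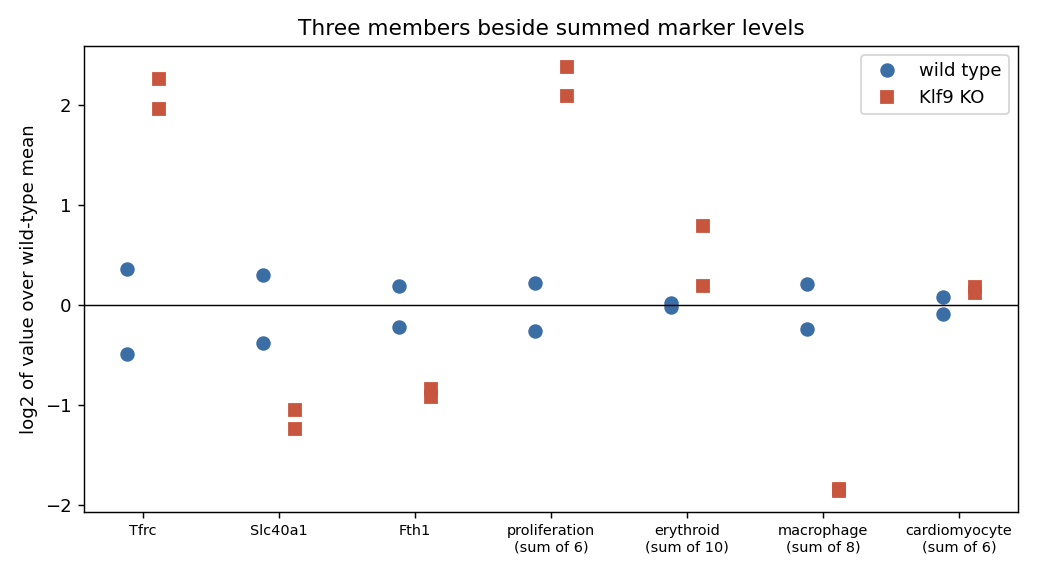
Log2 of the value over the wild-type mean for Tfrc, Slc40a1 and Fth1 and for the summed values of 4 marker lists, with circles for wild-type and squares for Klf9 knockout libraries. Tfrc and the proliferation sum are higher in both knockout libraries, and Slc40a1, Fth1 and the macrophage sum are lower. The cardiomyocyte sum stays within a narrow range, although its markers moved in both directions.

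The genes with the most similar profile were found by the Euclidean distance between centred log2(value + 1) profiles over the 4 libraries, among 5594 other tested genes with a mean of at least 10. With 4 libraries this likeness reflects mainly the group difference and the gap between the wild-type replicates. The nearest to Tfrc was Dnmt3a, a DNA methyltransferase, at 8.18 and 4.99 in wild type and 31.3 and 29.1 in the knockout (distance 0.171), and the next was Col15a1 (0.23). Fth1 was nearest to Sdhb, the iron-sulfur subunit of complex II (617 and 838 against 389 and 404, distance 0.0297), followed by Mrpl34. Isca1 was nearest to Ndufs3, a complex I subunit (distance 0.0375), and then Mdm2. For Iscu the closest were Rnf128 (distance 0.0841) and Tstd3 (0.0878). Nfs1 lay beside Afg1l and Nek7, and Slc40a1 beside Smim8 and Otud6b, all of which fell. The neighbours of Slc11a2 (Slc48a1, a heme transporter, and Blcap), Ftl1 (Psenen and Hsd17b12) and Glrx5 (Tpi1 and Hdgf) did not pass.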

How the data were processed

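The members and gene lists were chosen with earlier results of these data known. The authors deposited 1 table of comparisons: per the file headers, log2 ratios for each of 4 pairs of libraries and for the groups, with p-values and q-values from a Poisson model and from DEGseq. For the aligner, quantification, build and depth, the sources used here give nothing. The 4 ratios of a gene are additive to within 9.9e-14, so continued fractions gave 4 whole numbers per gene, read in steps of 0.01 (an assumption); this worked for all 17485 genes. As a control, 500 genes were resolved in 100% of cases as deposited and in 0% after the ratios were moved slightly. A factor common to the 4 values of a gene is lost, so a level can be too low while its ratios stand, and levels are not compared between genes. Values of 0.01 may stand for 0.

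The 12135 genes that reached 1 in 2 or more libraries were tested with limma 3.58.1 (R 4.3.3; trend and robust settings) on log2(value + 1), group as the only term, Benjamini-Hochberg adjusted p below 0.05. Fold changes on this scale understate those of low genes. Named genes were the 9 members, Klf9, up to 3 genes per list and direction by lowest p, and the 2 nearest profiles of each member. Alternatives were other scalings, filters and pseudocounts, non-robust moderation, a replicate block and leaving out each library. With a library left out, the tested genes were either kept fixed or chosen by applying the filter again to the remaining libraries. The place of the refiltered fits was decided after results were seen, and both versions are given. The script was tested on simulated data. Python 3.11.15, numpy 2.4.6, pandas 2.3.3 and matplotlib 3.10.9 were used. Some genes that the rule for named genes takes are not reported here.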

Additional observations from a re-analysis of the deposited data

How the results depend on the processing

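The 9 fold changes were recomputed under 12 alternatives, 108 values in all: 0 changed direction, 101 kept their side of the threshold, 6 lost the call (Fth1 and Isca1 without either knockout library, Nfs1 without knockout replicate 2, Isca1 with no filter) and 1 gained it (Ftl1 without wild-type replicate 1). Leaving out 1 library at a time, the genes called higher numbered 1859 to 4327 and those called lower 1100 to 3261; the members past the threshold numbered 2 to 4 of 5 in uptake, export and storage and 1 to 3 of 4 in assembly. The lowest of these came without knockout replicate 2, and for uptake, export and storage the same count also came without knockout replicate 1. With the filter applied again to the remaining libraries, an alternative whose place was decided after its results were seen, 1274 to 4340 genes were higher and 1033 to 2982 lower (1588 and 1174 without knockout replicate 1), assembly members past the threshold numbered 1 to 3, uptake, export and storage members 2 to 4, and Nfs1 also lost its call without knockout replicate 1 (limma adjusted p = 0.0544 against 0.0474). RLE scaling moved the median of all genes by -0.13 and gave 2632 higher and 2597 lower genes against 3367 and 2061, so that the share of calls that were higher went from 62% to 50.3%; relative to the median of all genes the uptake, export and storage and the assembly medians were -0.40 and -0.88, and -0.42 and -0.90 after RLE scaling. The titles number replicates in both groups, but nothing says that equal numbers were paired, and the replicate 1 minus 2 differences of the groups correlated at -0.0355 across genes. With the replicate number as a block 3514 genes were higher and 2275 lower, and 3 members of each group passed. Another filter, non-robust moderation or the block cannot alter a fold change here, only its p-value. The directions of those among the 108 values were therefore fixed in advance. Depth is not stated, so what it limits is not known.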
